A study of Homo sapiens with 6 samples.

Results

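MicroRNA host genes are long non-coding genes whose primary transcripts carry the hairpins of microRNAs, and 8 of them were examined here: MIR17HG, MIR22HG, MIR210HG, MIR155HG, MIR99AHG, MIR100HG, MIR31HG and MIRLET7BHG. They were taken by name from the 58174 genes of an mRNA-seq table, and each name matched 1 row. The libraries were made from polyadenylated RNA of KNS42, an established line grown from a glioblastoma of childhood, 72 h after transfection of a control siRNA (siC, n = 3) or an siRNA pool against the RNA-binding protein MSI1 (siMSI1, n = 3). All cells were of the same line in DMEM with serum, without a further allele or agent. Levels are given in FPKM, the reads of a gene set against its length and the size of its library, and the reads behind them were recovered from FPKM times length.

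Reads on genes numbered 14448513 to 18024080 per siC library and 13087025 to 14700593 per siMSI1 library. MSI1 itself, the targeted gene, was at 61.9 to 66.9 FPKM in siC and at 11.2 to 12.3 FPKM in siMSI1, a log2 fold change of -2.43 (SE 0.067). Of the glial and neural stem cell markers, VIM, SOX2 and NES were well above the filter of the test in both groups, GFAP was at 1.63 FPKM in siC and 4.61 FPKM in siMSI1, and OLIG2 had 0 reads in every library. Of 5 markers of other cell types, 0 reached the filter. PECAM1 (endothelium) had 0 to 1 reads per siC library and 5 to 8 per siMSI1 library, MYH11 (smooth muscle) had 3 to 18 reads in any library, PTPRC (leukocytes) and EPCAM (epithelium) had at most 6, and RBFOX3 (neurons) had 0. Their part in the results below was not tested.

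A microRNA is made in steps. The host gene is transcribed as a long primary transcript, the nuclear enzyme Drosha cuts the hairpin out of it, Dicer trims the hairpin in the cytoplasm, and a single strand is loaded into an Argonaute protein. The loaded strand finds mRNAs mainly through its seed, bases 2 to 8 counted from the 5′ end, which pairs with sites in 3′UTRs. Reads on a host gene therefore report the polyadenylated host RNA, spliced or not yet processed, and not the amount of mature microRNA.

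The mature strands that name the host genes, or that share a seed between them, are shown with the seed in capitals, since the seed decides which hosts can be grouped by the mRNAs their products pair with. Sequences are from RefSeq on GRCh38.p14. MIR17HG carries the miR-17~92 cluster, well known as an oncogenic cluster, between positions 91350618 and 91351382 of chromosome 13 (plus strand).
miR-17-5p: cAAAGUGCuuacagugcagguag
miR-20a-5p: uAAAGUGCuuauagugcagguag
miR-18a-5p: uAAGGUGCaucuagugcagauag
miR-19a-3p: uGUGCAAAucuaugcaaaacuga
miR-19b-3p: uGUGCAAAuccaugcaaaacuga
miR-92a-3p: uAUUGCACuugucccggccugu
miR-17-5p and miR-20a-5p shared a seed and differed by C1U and C12U (miR-17-5p first, positions from 1 at the 5′ end). miR-19a-3p and miR-19b-3p shared another and differed by U11C. miR-18a-5p and miR-92a-3p each had a seed of their own.

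The hosts of single microRNAs carry 4 unrelated seeds. MIR22HG is the host of miR-22, MIR210HG of the hypoxia-induced miR-210, MIR155HG (also known as BIC) of the immune cell microRNA miR-155, and MIR31HG of miR-31.
miR-22-3p: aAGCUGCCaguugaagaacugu
miR-210-3p: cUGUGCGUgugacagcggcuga
miR-155-5p: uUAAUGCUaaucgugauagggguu
miR-31-5p: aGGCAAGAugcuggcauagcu

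The remaining 3 hosts overlap in what they encode. MIR99AHG carries miR-99a, let-7c and miR-125b-2, MIR100HG carries miR-100, let-7a-2 and miR-125b-1, and MIRLET7BHG carries let-7a-3 and let-7b. let-7 microRNAs are known for rising as cells differentiate.
miR-99a-5p: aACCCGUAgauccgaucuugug
miR-100-5p: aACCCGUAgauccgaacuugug
let-7a-5p: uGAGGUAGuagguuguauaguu
let-7b-5p: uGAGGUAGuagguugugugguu
let-7c-5p: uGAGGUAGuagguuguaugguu
miR-125b-5p: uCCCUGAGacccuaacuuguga
miR-99a-5p and miR-100-5p differed by U16A outside their shared seed. The let-7 seed occurred in all 3 hosts, where let-7c-5p differed from let-7a-5p by A19G, and let-7b-5p from let-7a-5p by A17G and A19G. miR-125b-5p was the same sequence in both MIR99AHG and MIR100HG.

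The position of the hairpin decides whether a read from the spliced host RNA can cover it. All hairpins lay inside their host and on its strand in GENCODE release 44. miR-22 was exonic in 30 of 32 annotated transcripts of MIR22HG and miR-155 in 2 of 2 of MIR155HG. miR-210 was intronic in 9 of 9 transcripts of MIR210HG, and miR-31 in 21 of 27 of MIR31HG, the others not reaching it. The miR-17~92 hairpins were exonic in 3 and intronic in 8 of 16 transcripts of MIR17HG. miR-99a was intronic in 128 of 258 transcripts of MIR99AHG and miR-100 in 24 of 107 of MIR100HG, and no transcript of either had it in an exon. let-7a-3 and let-7b were exonic in 1 of 9 transcripts of MIRLET7BHG, near the 3′ end of the gene.

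**Figure D1:**
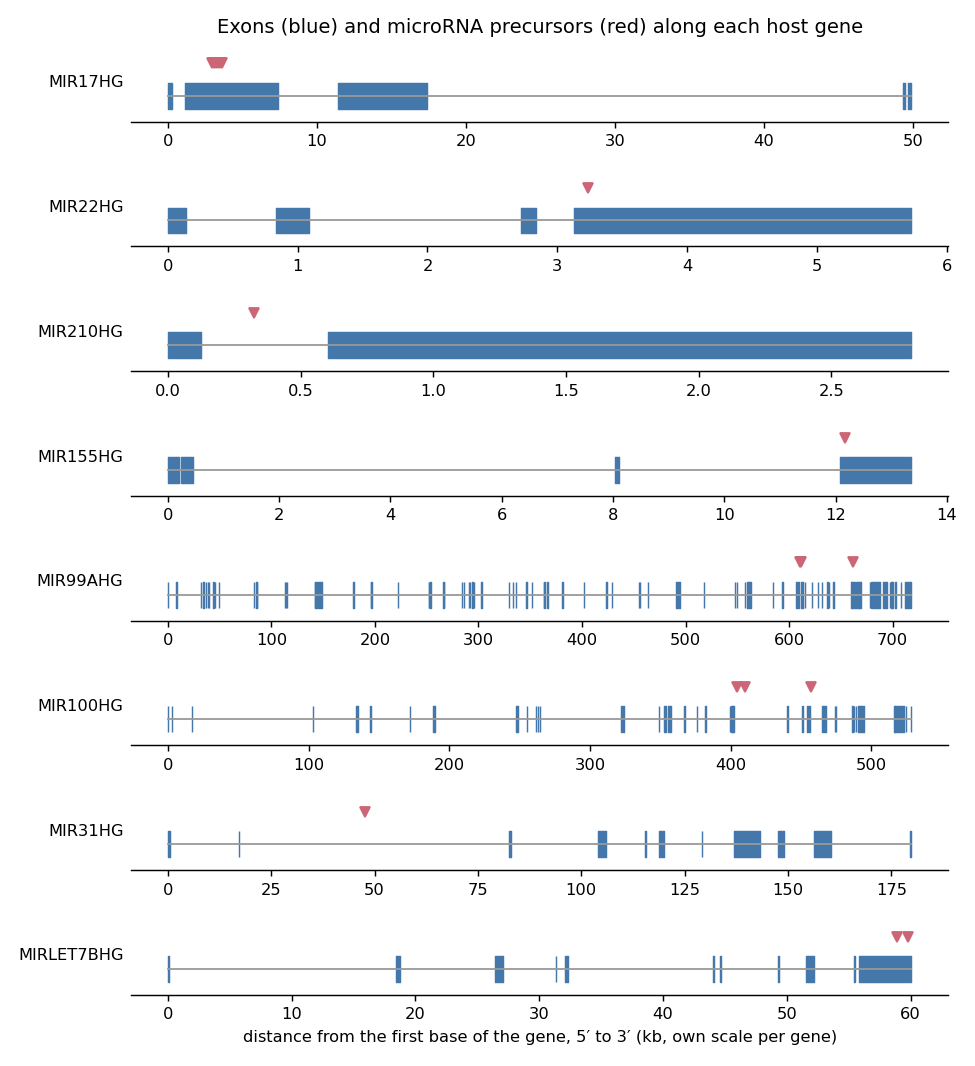
Exons of all annotated transcripts joined (blue blocks) and microRNA hairpins (red triangles) along each of the 8 host genes, with the distance from the first base of the gene in kb on a scale of its own for each gene. The miR-22 and miR-155 hairpins lie over exons, the miR-210 and miR-31 hairpins lie over introns, and those of MIR99AHG and MIR100HG lie over 400 kb from the start of the gene.

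The hairpins have rows of their own in the table, and these held almost no reads. Some of them, such as MIR22 and MIR155, meet an exon of their host on the same strand. How reads there were assigned was not tested. Of 18 precursor rows, 13 were at 0 in all 6 libraries. MIR125B1 had 3, 2 and 0 reads in siC and 2, 4 and 0 in siMSI1, which was the highest, and MIR125B2 had 1 read in each library. MIRLET7A2 had 1 read in siC replicate 2 and 1 in siMSI1 replicate 2, and MIR210 and MIRLET7C had 1 read each, in siMSI1 replicate 2. MIR125B1 and MIR125B2 passed the filter through their short length, and neither passed the test (log2 fold changes of 0.29 and 0.14, limma adjusted p = 0.92 and 0.67). On so few reads a difference was not detectable.

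Upon MSI1 knockdown, 1 of the 8 host genes passed the test, MIR22HG, which rose about 2-fold. MIR99AHG, MIR100HG, MIR31HG and MIRLET7BHG were tested and did not pass, MIR17HG and MIR210HG were below the filter (a mean of at least 0.5 FPKM over the 6 libraries), and MIR155HG had 0 reads in every library. The test was limma on log2(FPKM + 0.1) across the 15069 genes past the filter, with Benjamini-Hochberg adjustment and a threshold of 0.01. In that fit 11.0% of tested genes were called, with 5.15% higher and 5.83% lower in siMSI1. With 5 host genes tested, 1 call is too few to be set apart from that background. In these bulk samples, fewer cells making an RNA and less of it per cell cannot be told apart. The labels do not say whether replicates came from separate cultures, so the spread between them may be technical.

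**Figure D2:**
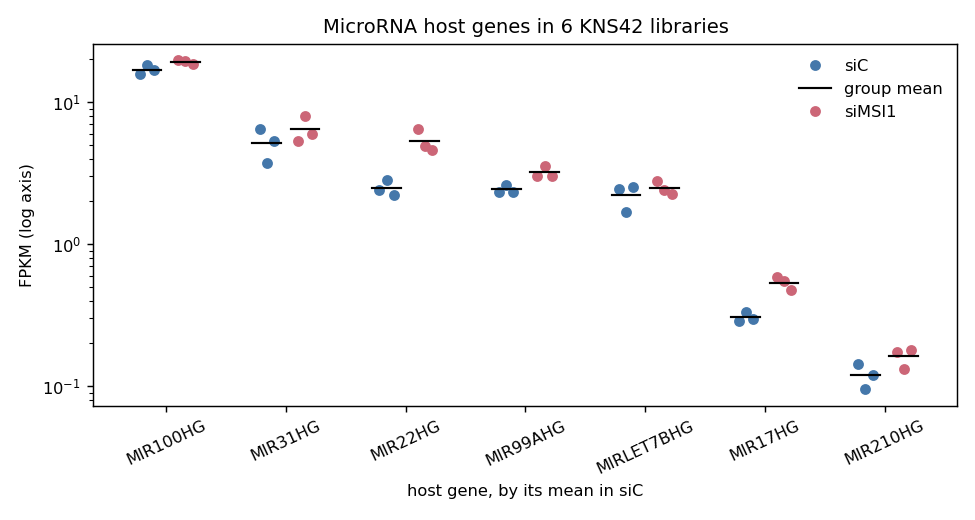
FPKM (log axis) of 7 host genes in each of the 3 siC (blue) and 3 siMSI1 (red) libraries, with a bar at each group mean; MIR155HG, at 0 in all libraries, cannot be drawn on a log axis. The groups are apart for MIR22HG, MIR99AHG, MIR100HG and MIR17HG, and overlap for MIR31HG, MIRLET7BHG and MIR210HG. Groups were apart for 42.8% of all tested genes and for 9.63% of genes above 0 but below the filter.

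In siC the order of the levels per length was MIR100HG, MIR31HG, MIR22HG, MIR99AHG, MIRLET7BHG, MIR17HG and MIR210HG, with MIR155HG at 0. MIR100HG stood at 15.7 to 18.2 FPKM, above every library of the next gene. MIR31HG ranged from 3.71 to 6.45 FPKM. The ranges of MIR22HG, MIR99AHG and MIRLET7BHG overlapped one another, so their order in siC was not set by these libraries. MIR17HG was clear of both its neighbors, though on few reads. MIR210HG, on 4 to 5 reads, was below the 3-read floor of MIR155HG in siC replicates 2 and 3 (0.0953 against 0.104 FPKM and 0.120 against 0.130 FPKM). Those libraries, taken singly, did not set these genes apart. Over the siC libraries together MIR210HG had 13 reads and MIR155HG 0, a difference that was not tested. Levels per length rest on the gene lengths the authors used. For MIR31HG this was 745 bases, where the joined exons of GENCODE release 44 cover 16590, for MIR99AHG 6171 against 58906, for MIR17HG 3492 against 12894 and for MIR100HG 11009 against 30177, while for MIR22HG (2986 against 3108) and MIR210HG (2321 against 2324) they were close. The second rank of MIR31HG rests on its length of 745 bases, as it had 50 to 72 reads in siC, against 96 to 153 for MIR22HG. Reads were not counted again on the longer joined exons, so the level of MIR17HG on them is not known. MIR100HG was first in reads too, at 2594 to 3623 per siC library, so its first rank does not come from a short length. Fold changes of a gene between groups do not depend on the gene length used, apart from the added 0.1.

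MIR22HG (ENSG00000186594, GRCh38 chr17:1711447-1717174, minus strand) was at 2.41, 2.83 and 2.23 FPKM in siC replicates 1 to 3 and at 6.45, 4.93 and 4.64 FPKM in siMSI1 replicates 1 to 3. Every siMSI1 library was above every siC library, as for 21.4% of all tested genes, and siMSI1 replicate 1 was the highest. Behind these values were 108, 153 and 96 reads in siC and 284, 193 and 199 reads in siMSI1. Mean MIR22HG rose from 2.49 ± 0.307 FPKM in siC to 5.34 ± 0.973 FPKM in siMSI1 (SD, n = 3 per group). This was a log2 fold change of 1.06 (SE 0.149, limma adjusted p = 0.0025). The 95% interval ran from a 1.64-fold to a 2.65-fold increase. The call was lost without siC replicate 1 (adjusted p = 0.0135), without siC replicate 3 (adjusted p = 0.0107) and without a filter on low genes (adjusted p = 0.0109), with log2 fold changes of 0.85 to 1.15 and adjusted p of 4.94e-06 to 0.0135 over the 17 alternatives.

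MIR22HG overlaps WDR81, a protein-coding gene on the opposite strand, and whether the authors' counting used strand is not given in the sources used here. WDR81 was at 2.34 ± 0.0222 FPKM in siC and 2.30 ± 0.277 FPKM in siMSI1 (SD, n = 3 per group), with a log2 fold change of -0.03 (limma adjusted p = 0.90). So the difference in MIR22HG was not accompanied by one of like size in the row of its overlapping neighbor.

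The genes whose levels followed MIR22HG most closely over the 6 libraries were CCNJ (Pearson r = 0.999), STAMBPL1 (0.998) and UGGT1 (0.998), the highest of 15068 genes ranked on log2(FPKM + 0.1). CCNJ, a cyclin family gene, was at 4.28, 4.52 and 4.04 FPKM in siC and 6.90, 5.92 and 5.81 FPKM in siMSI1, with the same order of libraries as MIR22HG within each group. It rose by a log2 fold change of 0.52 (limma adjusted p = 0.0078), a call kept in 1 of 6 fits that left out a library. STAMBPL1 and UGGT1 were at log2 fold changes of 0.23 and 0.22 and did not pass. The 6 points share the group difference and their libraries, and the ranking is a description.

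MIR99AHG (ENSG00000215386, GRCh38 chr21:15928296-16646364, plus strand) was at 2.35, 2.61 and 2.33 FPKM in siC and 3.0, 3.56 and 3.04 FPKM in siMSI1, on 207 to 291 reads per library. The groups did not overlap, as for 42.8% of all tested genes (21.4% higher in siMSI1). Its mean was 2.43 ± 0.155 FPKM in siC and 3.20 ± 0.313 FPKM in siMSI1 (SD, n = 3 per group). The log2 fold change of 0.38 (SE 0.113, 95% interval 0.12 to 0.64) did not pass the threshold of 0.01 (limma adjusted p = 0.043). It would pass at 0.05, where 12.2% of tested genes were higher and called, but not in any of the 6 fits that left out a library (adjusted p = 0.054 to 0.136) or without a filter (adjusted p = 0.093).

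MIR100HG (ENSG00000255248, GRCh38 chr11:122028325-122556721, minus strand), the relative of MIR99AHG in what it encodes, had the most reads of the 8, at 2594 to 3623 per library. It was at 15.7, 18.2 and 16.8 FPKM in siC and 19.7, 19.5 and 18.5 FPKM in siMSI1. The lowest siMSI1 library was just above the highest siC library, and 21.4% of all tested genes were apart in that direction. The log2 fold change was 0.19 (SE 0.074, 95% interval 0.02 to 0.36) and did not pass (limma adjusted p = 0.10), so an increase larger than 1.28-fold lay outside the interval.

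MIRLET7BHG (ENSG00000197182, GRCh38 chr22:46053869-46113928, plus strand), which carries the let-7 seed as these hosts do, was at 2.46, 1.70 and 2.54 FPKM in siC and 2.81, 2.41 and 2.27 FPKM in siMSI1. The groups overlapped, and siC replicate 2 was the lowest library. Its log2 fold change was 0.17 (SE 0.173, 95% interval -0.23 to 0.57, limma adjusted p = 0.51), and it was -0.0055 without siC replicate 2.

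A gene that overlaps MIRLET7BHG on the same strand did change. PRR34-AS1 (ENSG00000241990), a non-coding gene, was at 4.34, 4.30 and 5.15 FPKM in siC and 8.44, 9.07 and 9.17 FPKM in siMSI1, on 71 to 85 and 130 to 144 reads. The groups were far apart, and the log2 fold change was 0.94 (SE 0.095, limma adjusted p = 0.00067), past the threshold in 6 of 6 fits that left out a library. PRR34-AS1 spans an exon of MIRLET7BHG, and how reads there were assigned was not tested. The difference between both genes' changes was not tested either.

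MIR31HG (ENSG00000171889, GRCh38 chr9:21380073-21559891, minus strand) lies within the type I interferon gene cluster, and its interferon neighbors were at 0 reads or below the filter. It was at 6.45, 3.71 and 5.32 FPKM in siC and 5.37, 7.99 and 5.98 FPKM in siMSI1. The groups overlapped, with the lowest value in siC replicate 2 and the highest in siMSI1 replicate 2. On 50 to 78 reads per library, the log2 fold change was 0.33 with a 95% interval from -0.19 to 0.85 (SE 0.221, limma adjusted p = 0.32). A difference of up to 1.80-fold was therefore within the interval. Single libraries moved the log2 fold change, to 0.12 without siC replicate 2, 0.17 without siMSI1 replicate 2 and 0.51 without siC replicate 1, and the upper limit reached 1.08 without siMSI1 replicate 3.

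**Figure D3:**
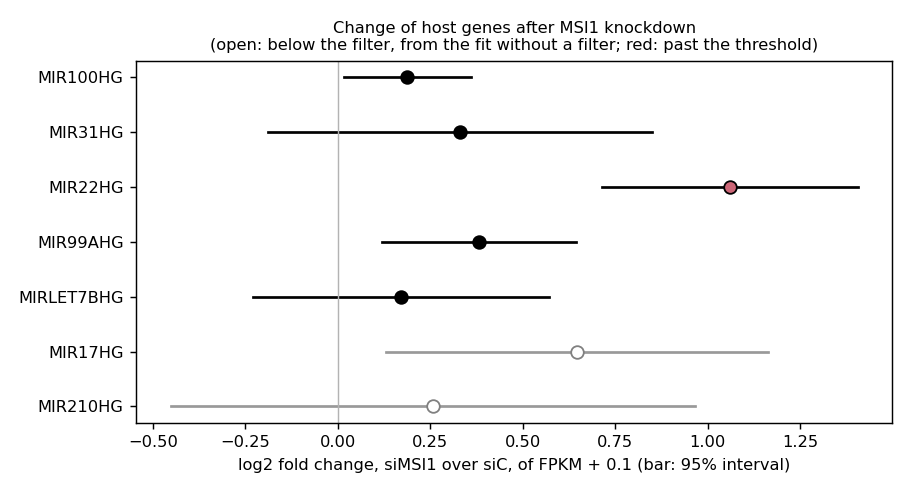
Log2 fold change of siMSI1 over siC, on log2(FPKM + 0.1), for 7 host genes, with 95% intervals as bars. MIR22HG (red) passed the threshold at 1.06; the other tested genes (black) lie between 0.17 and 0.38, and MIR17HG and MIR210HG (open, from the fit without a filter) have wide intervals.

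MIR17HG (ENSG00000215417, GRCh38 chr13:91347686-91397592, plus strand), the host of miR-17~92, was low in these polyadenylated libraries. It was at 0.287, 0.332 and 0.299 FPKM in siC and 0.583, 0.546 and 0.479 FPKM in siMSI1, on 15, 21 and 15 reads and 30, 25 and 24 reads. Each siMSI1 library was above each siC library, as for 4.63% of the genes above 0 that lay below the filter. Counted in either direction, 9.63% of those genes had groups that did not overlap. Among tested genes these shares were 21.4% and 42.8%. MIR17HG lay just below the filter, at a mean of 0.42 FPKM over the 6 libraries. The ratio of the means was 1.75. The gene was not among those tested, and an exact permutation test over the 6 libraries gave p = 0.1 (two-sided), the smallest that 3 against 3 libraries allow. In the fit without a filter its log2 fold change was 0.65 (SE 0.216, 95% interval 0.13 to 1.16, limma adjusted p = 0.14). The log2 difference moved with the added value, to 0.23 with 1 and to 0.79 with 0.01.

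Of 4 transcription factors known to drive MIR17HG, 1 rose, 1 fell and the others did not pass, where 11.0% of all tested genes were called. The calls are given as single genes and not as a result about the list. MYCN rose from 78.2 ± 2.33 to 120 ± 2.40 FPKM (SD, n = 3 per group; log2 fold change 0.62, limma adjusted p = 0.00055), with 76.0, 78.1 and 80.6 FPKM in siC and 123, 119 and 118 FPKM in siMSI1. E2F1, a cell cycle factor, fell from 38.1 ± 4.09 to 20.5 ± 2.33 FPKM (log2 fold change -0.89, limma adjusted p = 0.0014). Both calls held in 6 of 6 fits that left out a library. MYC was at 0.656 FPKM in siC and 0.457 FPKM in siMSI1 and E2F3 at 5.45 and 6.77 FPKM, and neither passed (limma adjusted p = 0.38 and 0.077). A part of any of them in the values of MIR17HG was not tested.

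MIR210HG (ENSG00000247095, GRCh38 chr11:565657-568457, minus strand) had 5, 4 and 4 reads in siC and 6, 4 and 6 reads in siMSI1, or 0.144, 0.0953 and 0.120 FPKM and 0.175, 0.131 and 0.180 FPKM. The groups overlapped (exact permutation p = 0.2, two-sided), and a difference was not detectable at this depth. The fit without a filter gave a 95% interval from 0.731-fold to 1.95-fold on FPKM + 0.1, where the added value is about as large as the level. The log2 difference was 0.26 there, 0.05 with an added value of 1 and 0.42 with 0.01. Of the hypoxia-inducible factors known to activate MIR210HG, HIF1A was at 17.4 FPKM in siC and 14.5 FPKM in siMSI1, a log2 fold change of -0.27 that did not pass (limma adjusted p = 0.099). EPAS1 and ARNT were at log2 fold changes of -0.01 and 0.04. Of 8 genes commonly induced by hypoxia, 5 were tested, 1 was called higher (against 5.15% of all tested genes) and 0 lower, with a median log2 fold change of -0.03. The gene called was EGLN3, a prolyl hydroxylase that targets hypoxia-inducible factors, at 1.42 FPKM in siC and 2.52 FPKM in siMSI1 (log2 fold change 0.79, limma adjusted p = 0.0079), and its call was lost in each of the 6 fits that left out a library. BNIP3, a mitophagy receptor gene of the same list, lay on the other side, at 8.18 FPKM in siC and 5.73 FPKM in siMSI1 (log2 fold change -0.51, limma adjusted p = 0.015). It did not pass, but would without siMSI1 replicate 2 or with voom on recovered reads (adjusted p = 0.0023).

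MIR155HG (ENSG00000234883, GRCh38 chr21:25561810-25575168, plus strand) had 0 reads in all 6 libraries, which allows up to 3 reads, or 0.104 to 0.143 FPKM per library, counting error only. The factors known to activate it in immune cells were present. RELA was at 32.9 FPKM in siC, NFKB1 at 5.14 FPKM, JUNB at 25.6 FPKM and FOS at 1.56 FPKM, and none of these passed the test (limma adjusted p = 0.17, 0.26, 0.017 and 0.27). JUNB was at 35.5 FPKM in siMSI1 (log2 fold change 0.47). It would pass with the replicate block (limma adjusted p = 0.0056) or voom on recovered reads (adjusted p = 0.0027), but in 0 of 6 fits that left out a library.

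Set beside one another, the log2 fold changes of the 5 tested host genes had a median of 0.33 and all 5 were above 0, where the median of all tested genes was 0.00 and 50.0% were above 0. Over 3704 tested genes of other types than protein-coding the median was 0.05, and 4.48% were called. For the 635 tested lincRNA genes it was 0.01, and 6.30% were called. Reads of all libraries enter each of these values, so the genes are not independent replicates.

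**Figure D4:**
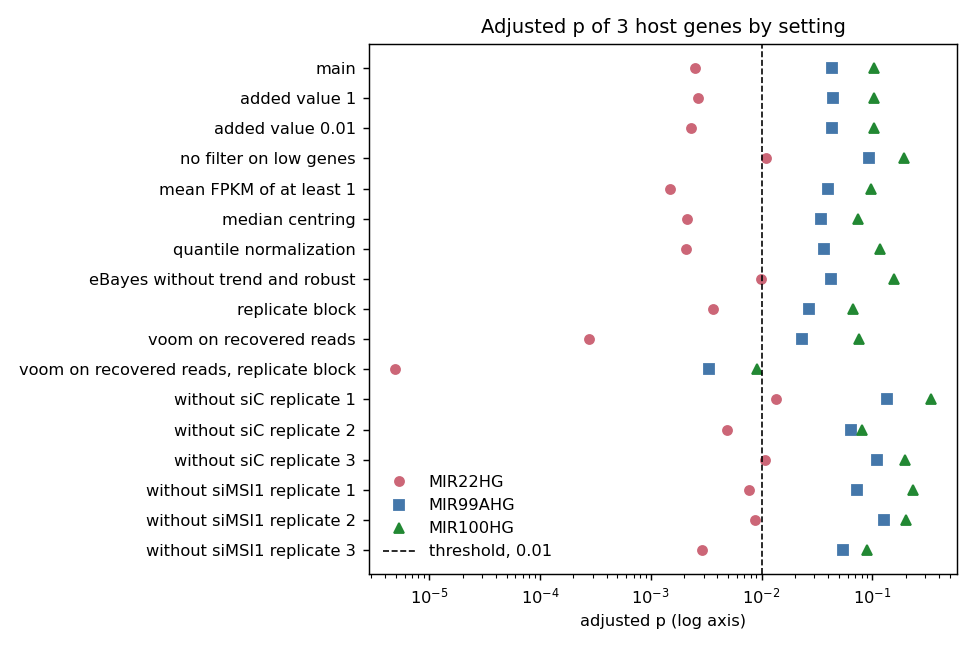
Adjusted p (log axis) of MIR22HG, MIR99AHG and MIR100HG in the main test and under each alternative setting, with the threshold of 0.01 as a dashed line. MIR22HG lies left of the line except without siC replicate 1, without siC replicate 3 and without a filter; the other genes cross it only with voom and the replicate block.

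The median of other non-coding microRNA host genes lay on the other side of 0, a difference that was not tested. Of 60 such rows, 20 were at 0 in every library and 18 were tested, of which 1 was called higher and 1 lower (11.1%, against 11.0% of all tested genes), with a median log2 fold change of -0.11. By the authors' annotation 1 of the 60, C1orf61, is protein-coding. MIR9-3HG, the host of the neural microRNA miR-9, fell from 11.7, 11.6 and 10.5 FPKM in siC to 6.81, 7.33 and 6.40 FPKM in siMSI1 (log2 fold change -0.71, SE 0.083, limma adjusted p = 0.0012), and passed in 6 of 6 fits that left out a library. MIR4435-2HG rose from 3.85, 4.06 and 3.69 FPKM to 5.67, 6.53 and 6.36 FPKM (log2 fold change 0.66, SE 0.091, limma adjusted p = 0.0022), a call lost without siC replicate 1, siC replicate 3 or siMSI1 replicate 2. The difference between these genes and MIR22HG was not tested.

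Protein-coding genes that carry microRNAs in their introns were mixed as well. Of 45 listed, 38 were tested, 2 were called higher and 3 lower, with a median log2 fold change of -0.09. The share called, 13.2%, was near the 11.0% of all tested genes, so the calls are given as single genes and not as a result about the list. CTDSPL, a phosphatase gene that hosts miR-26a-1, fell from 7.20 ± 0.177 to 3.59 ± 0.280 FPKM (SD, n = 3 per group; log2 fold change -0.99, limma adjusted p = 0.0005). PDE2A, a cyclic nucleotide phosphodiesterase gene that hosts miR-139, rose from 8.33 ± 0.692 to 14.8 ± 0.769 FPKM (log2 fold change 0.82, limma adjusted p = 0.00069). Both passed in 6 of 6 fits that left out a library.

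The other calls among them were less firm. MCM7, a subunit of the replicative helicase, hosts miR-106b, miR-93 and miR-25, relatives of the miR-17~92 cluster, and fell from 136 ± 5.59 to 106 ± 6.38 FPKM (SD, n = 3 per group; log2 fold change -0.36, limma adjusted p = 0.0090). GPC1, a glypican gene that hosts miR-149, rose from 66.0 ± 5.60 to 99.4 ± 14.6 FPKM (log2 fold change 0.58, limma adjusted p = 0.0090). Of the 6 fits that left out a library, both passed only in that without siMSI1 replicate 3. PANK1, a pantothenate kinase gene that hosts miR-107, fell from 2.27 ± 0.208 to 1.31 ± 0.0776 FPKM (log2 fold change -0.75, limma adjusted p = 0.0059) and passed in none of the 6.

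The study tested miR-27b and miR-143 on the CD44 3′UTR, and their hosts were read from the same fit. C9orf3 (also named AOPEP), the host of miR-27b, was at 11.7, 11.3 and 11.8 FPKM in siC and 13.9, 14.3 and 14.1 FPKM in siMSI1. The groups did not overlap, as for 42.8% of all tested genes, and its log2 fold change of 0.28 did not pass (limma adjusted p = 0.015). It would pass with voom on recovered reads (adjusted p = 0.0060) and with voom and the replicate block (adjusted p = 0.0002). It passed in 0 of 6 fits that left out a library. CARMN, the host of miR-143, had 8, 13 and 6 reads in siC and 5, 3 and 2 reads in siMSI1 and was below the filter. The study itself reported miR-27b-3p and miR-143-3p as expressed in KNS42 by small RNA sequencing. Reads on the hosts do not give those amounts.

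**Figure D5:**
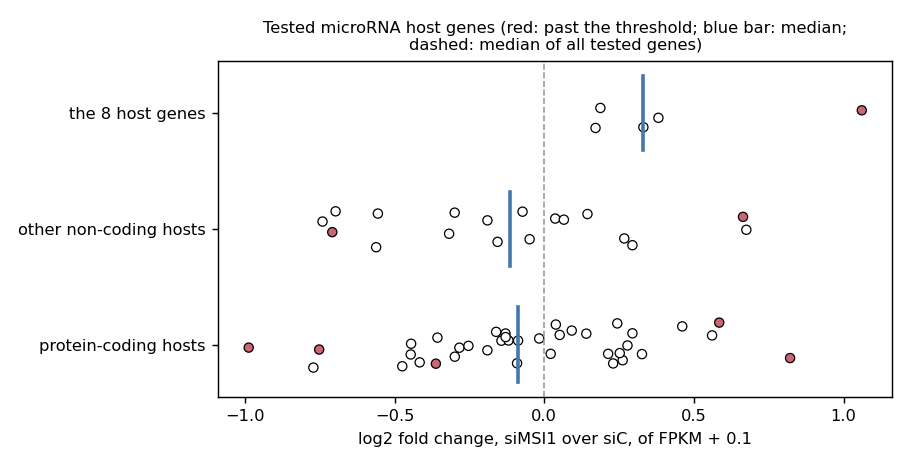
Log2 fold change of siMSI1 over siC, on log2(FPKM + 0.1), for each tested gene among the 8 host genes (5 tested), the other non-coding hosts (18) and the protein-coding hosts (38), with genes past the threshold in red, list medians as blue bars and the median of all tested genes as a dashed line. The medians are 0.33, -0.11 and -0.09.

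The seeds allow a look at mRNAs that could pair with the microRNAs of these hosts, although the microRNAs themselves were not measured here. Of 11281 tested protein-coding genes with a 3′UTR of at least 30 bases in GENCODE release 44, the median log2 fold change was -0.01, and 13.1% were called. The site searched, on the mRNA strand, was the complement of the seed followed by A. For miR-22-3p this is GGCAGCUA, found in 278 genes with a median of -0.03 and 12.2% called. The let-7 site CUACCUCA was in 532 genes with a median of -0.01 and 11.8% called. The miR-17-5p site GCACUUUA was in 658 genes with a median of -0.02 and 13.4% called. For miR-210-3p, ACGCACAA was in 71 genes with a median of -0.12 and 16.9% called. These were the lowest median and the highest share of the 11 seeds searched. The highest median was 0.03, for miR-125b-5p (694 genes, 12.7% called). The lowest share was 7.69%, for the seed of miR-99a-5p and miR-100-5p (39 genes). Genes with a site had longer 3′UTRs (a median of 2955.5 to 3705 bases over the 11 seeds, against 1539 in all), so the lists differ from the rest in more than the site, and the same gene can stand in several of them.

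The 3′UTR of CD44, the mRNA on which the study centred, is 3069 bases long in its longest form and held none of the 11 seed complements of 7 bases. Among 1678 3′UTRs within 20% of that length, the share with the complement was 23.4% for miR-22-3p (GGCAGCU), 14.8% for let-7 (CUACCUC) and 41.3% for miR-17-5p (GCACUUU). The absence says only that these letters are not in that window.

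MSI1 is known to bind RNA at UAG, so that motif was counted on the sense strand of the longest transcript of each host. MIR17HG had 18.1 UAG per kb and MIR99AHG 16.5, at percentiles 96.0 and 94.1 of 3577 tested non-coding genes, whose median was 8.47. MIR155HG had 13.5, MIR31HG 13.0, MIR100HG 11.5, MIR22HG 9.39, MIRLET7BHG 7.68 and MIR210HG 5.66 per kb. The share of A and U moved with it, at 66.0% in MIR17HG and 63.0% in MIR99AHG against 37.0% in MIRLET7BHG and 41.0% in MIR210HG, where the median was 51.6%. MIR22HG, the host gene that passed the test, was at percentile 57.8. A match is a description of the sequence, not a bound site.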

How the data were processed

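polyA RNA of 6 KNS42 samples was sequenced (800 ng of total RNA, strand-specific preparation, per the labels). The authors clipped reads with Cutadapt 1.14, aligned them to GRCh38 with HISAT2 2.1.0, summarized them per gene with featureCounts 1.5.3 on Ensembl release 89 and deposited FPKM values per gene and library. Use of strand in counting is not given in the sources used here. The table's own fold changes, p-values and FDR (edgeR 3.18.1 with TMM, by the authors) were not used.

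Groups and replicate numbers came from the sample titles. Reads were recovered as FPKM times gene length over the value of 1 read, whole within 0.01 for 100% of values above 0. Libraries of a group differed by at least 3.55 chi-square per degree of freedom, so none was a duplicate. limma 3.58.1 in R 4.3.3 (lmFit, eBayes with trend and robust) was fitted on log2(FPKM + 0.1) for 15069 genes, those whose mean over all libraries reached 0.5 FPKM. Benjamini-Hochberg adjustment ran over all of them, and the threshold was 0.01. The added value makes fold changes of low genes smaller. The fit was tested on simulated data. Host genes below the filter were given an exact permutation test. Intervals are 95% and floors are 3 reads. Positions and 3′UTRs came from GENCODE release 44 on GRCh38 and mature sequences from RefSeq (GRCh38.p14). Other steps used Python 3.11.15, pandas 2.3.3, SciPy 1.17.1 and, for plots, matplotlib 3.10.9.

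The 8 host genes and all lists were chosen with earlier results of these data known. Named genes are the 8 hosts, their precursor rows, called members of both other host lists, the hosts of miR-27b and miR-143, textbook regulators (1 of them not reported here), genes that overlap a host, the 3 genes most like each called host, and MSI1. The 17 alternatives were 2 added values, 2 filters, 2 scalings, plain eBayes, a threshold of 0.05, the replicate block, voom on recovered reads with and without the block, and leaving out each library.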

Additional observations from a re-analysis of the deposited data

How the results depend on the processing

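The threshold of 0.01 was passed by 1655 genes in all, 1 of the 8 host genes, 2 other non-coding hosts and 5 protein-coding hosts. Without a filter on low genes these counts were 792, 0, 2 and 2. With plain eBayes 847 genes and 3 protein-coding hosts passed, and with median centring 3 protein-coding hosts. At an adjusted p of 0.05 the counts were 3787, 2, 4 and 17. With voom on recovered reads 2684 genes passed, 5 other non-coding and 15 protein-coding hosts. With voom and the replicate block 4634 genes passed, 3 of the 8 host genes (MIR22HG, MIR99AHG at an adjusted p of 0.0034 and MIR100HG at 0.0091; 15.3% of tested genes were called higher), 5 other non-coding and 20 protein-coding hosts. Leaving out 1 library gave 517 (without siC replicate 1) to 885 genes, or 1603 genes without siMSI1 replicate 3, 0 (without siC replicate 1 or siC replicate 3) to 1 of the 8 host genes, 1 to 2 other non-coding hosts and 2 to 5 protein-coding hosts; fewer libraries enter each of these fits.

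The replicate block alone gave 2250 genes, and 1, 2 and 5 in the lists. Residuals of same-numbered libraries correlated at -0.066, 0.078 and 0.083, and those of differently numbered ones at -0.144 to 0.070. Whether the numbers pair the samples was not settled by these values. MIRLET7BHG ranged from -0.0055 (without siC replicate 2, where its sign turned and the cause was not tested) to 0.27 (without siC replicate 3) when 1 library was left out. MIR22HG passed in 14 of 17 alternatives, or in 13 of 16 without the threshold of 0.05, which reuses the main fit. The log2 fold changes of MIR31HG stayed between 0.12 and 0.51, of MIR99AHG between 0.29 and 0.43 and of MIR100HG between 0.14 and 0.24. For the untested MIR17HG the log2 difference was 0.23 with an added value of 1 and 0.79 with 0.01, and for MIR210HG 0.05 and 0.42. No scaling moved the median of all tested genes by over 0.1. Read numbers limit MIR17HG, MIR210HG, MIR155HG and the precursor rows.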
